A study of Mus musculus with 2 samples.

Results

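The genes described here are the 7 that carry out the making, vesicle loading and recapture of noradrenaline: Th, Ddc, Dbh, Slc18a2, Slc6a2, Cyb561 and Slc10a4. They were chosen by gene symbol alone, 7 of the 32285 features in each count matrix, and all 7 were found once. The matrices came from dissected locus coeruleus (LC), the noradrenergic nucleus of the pons, from wild type mice, males and females, 3 to 4 weeks old, of the strain C57BL/6N, also written C57Bl/N in the labels. There were 2 libraries of droplet-captured single cells or nuclei, called batch 1 and batch 2 in the labels, and no treatment or second genotype. All animals carried the same genotype. The labels describe papain-dissociated, methanol-fixed cells and also nuclei sorted with the DNA dye 7-AAD, without saying which library is which, and they give no number of mice. The word cell is used below for either.

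Noradrenaline is made from tyrosine in 3 steps. Tyrosine hydroxylase (Th), the rate-limiting enzyme, makes L-DOPA in the cytosol, aromatic L-amino acid decarboxylase (Ddc) turns it into dopamine, and dopamine beta-hydroxylase (Dbh) inside the vesicle turns dopamine into noradrenaline. The vesicular monoamine transporter VMAT2 (Slc18a2) loads dopamine and noradrenaline into vesicles, and the noradrenaline transporter NET (Slc6a2) takes released noradrenaline back into the cell. Cytochrome b561 (Cyb561) passes electrons from cytosolic ascorbate into the vesicle, where Dbh uses them, and Slc10a4 is a vesicle membrane protein known from cholinergic and monoaminergic neurons. Th, Ddc and Slc18a2 also serve other amine neurons, whereas Dbh makes noradrenaline itself and Slc6a2 recaptures it.

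Library 1 held 304 barcodes with 5600693 unique molecular identifiers (UMIs, counted RNA molecules) and library 2 held 2796 with 6895380; the median per barcode was 11010 and 1517. No barcode was shared. The libraries stand this far apart in depth, so values are given for each. After filtering, 294 and 2680 cells remained, together 2974; 2557 of them had at least 500 detected genes. Cells were clustered on marker genes that included none of the 7 members. A single cluster of 18 cells in library 1 and 70 in library 2 was named noradrenergic-like from other LC markers, among them Phox2a, Gal and Calcr; Shox2, fixed on the same list, was at 0 and 10.1 CPM (UMIs per 1000000 UMIs of the class), no higher than in the other neurons of library 2. The other neurons numbered 184 and 1240 cells, and the non-neuronal cells 92 and 1370. Noradrenergic-like cells were deep, holding a median of 71022.5 UMIs per cell in the first library and 8285 in the second, against 13723.5 and 2057.5 in the other neurons.

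All 7 members were higher in noradrenergic-like cells than in the other neurons. Their log2 folds ran from 3.72 (Cyb561) to 6.98 (Slc6a2) with a median of 5.23, where the median of all 11637 genes tested was -0.01. Of all genes tested, 28.1% were called in either direction and 14.5% were called higher (edgeR quasi-likelihood test on summed counts, library as a block, Benjamini-Hochberg adjusted p under 0.05). Against the non-neuronal cells all 7 were higher too, with a median log2 fold of 6.08, beside 55.1% of 10470 genes called and 26.9% called higher. The 2 libraries are the only replicates and enter as a block. These p-values therefore rest on how far the class difference varied between them, moderated over genes, and that variation may be technical. In the plot of levels by class, each member lies highest in noradrenergic-like cells.

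**Figure D1:**
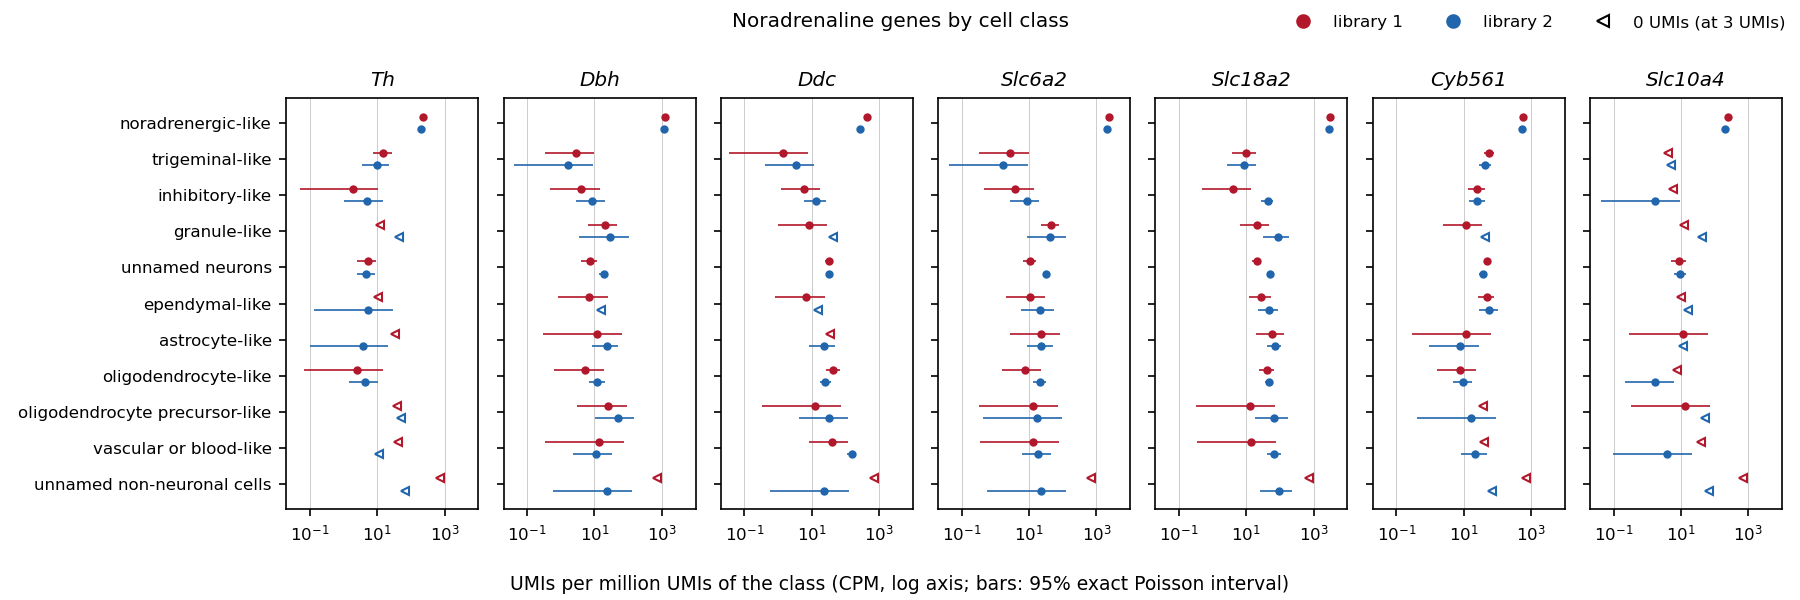
CPM (log axis) of each member in every cell class, library 1 in red and library 2 in blue; bars are 95% exact Poisson intervals (counting error only), and open triangles mark classes with 0 UMIs at the value that 3 UMIs would give. Every member has its highest measured level in noradrenergic-like cells in both libraries, and the highest level of any member outside them is that of Ddc in vascular or blood-like cells of library 2. The unnamed non-neuronal class of library 1 is 1 cell, whose limits lie far to the right.

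The enzyme of the first step, Th, was the least abundant member in CPM. Noradrenergic-like cells held 228 CPM of Th in library 1 (exact 95% interval 202 to 257) and 198 CPM in library 2 (166 to 234), against 6.42 and 5.56 CPM in the other neurons. The 2 libraries lie close together, and neither comes near the level of the other neurons. The log2 fold was 5.09 ± 0.20 (SE, adjusted p = 6.95e-07). The Th gene (ENSMUSG00000000214) lies on the minus strand at chr7:142892752-142931128 of GRCm38. Dbh, the enzyme of the last step and the one that separates noradrenergic from dopaminergic cells, was at 1208 CPM (1147 to 1273) and 1136 CPM (1058 to 1219) in the class. In the other neurons it was at 6.71 and 14.8 CPM, giving a log2 fold of 6.73 ± 0.27 (adjusted p = 6.95e-07). Dbh (ENSMUSG00000000889) lies on the plus strand at chr2:27165233-27183200. Only 3 genes of the 11637 tested had a larger fold than Dbh, which ranked 4.

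Th and Dbh are the first and last enzymes and rose together in this class, so the 250 bases before their RefSeq start sites (GRCm38.p6) are shown, with the homeodomain-type word CAATTAG and, in Th, the cAMP response element TGACGTCA in capitals. Both windows lie inside the gene spans given above, which are from GENCODE and begin further upstream than these start sites. Phox2a, a homeodomain factor among the markers of the class, is known to bind sites with an ATTA core.
Th, chr7:142899996-142900245, minus strand: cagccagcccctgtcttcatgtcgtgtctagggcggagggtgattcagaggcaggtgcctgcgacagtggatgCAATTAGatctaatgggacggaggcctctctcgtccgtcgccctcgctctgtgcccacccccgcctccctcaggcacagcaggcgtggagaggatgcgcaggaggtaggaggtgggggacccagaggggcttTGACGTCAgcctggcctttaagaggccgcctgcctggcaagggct
Dbh, chr2:27165257-27165506, plus strand: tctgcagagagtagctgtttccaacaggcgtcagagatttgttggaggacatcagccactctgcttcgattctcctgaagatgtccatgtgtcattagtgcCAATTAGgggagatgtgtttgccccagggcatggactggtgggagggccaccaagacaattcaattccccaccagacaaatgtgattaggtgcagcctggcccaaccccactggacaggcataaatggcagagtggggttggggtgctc
CAATTAG starts 177 bases before the start site in Th and 149 in Dbh. Over both strands it is present in 1.77% of the 32851 promoter windows of this length in the table. The word itself contains the letters ATTA, so any copy of it holds that core. It was chosen after the 2 sequences were read. TGACGTCA begins 45 bases upstream in Th and occurs in 1.55% of windows. The core ATTA occurs 2 times in Th and 3 times in Dbh, but 54.9% of all windows hold it. The windows of Slc18a2, Slc10a4 and both start sites of Ddc hold neither CAATTAG nor TGACGTCA. A match describes letters in a window and is no evidence of binding. The table matched 5 of the 7 members; Slc6a2 and Cyb561 were not matched.

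Ddc, the middle enzyme, was at 430 CPM (393 to 469) in library 1 and 274 CPM (236 to 316) in library 2. Its counting intervals do not overlap, and the ratio of the libraries, 1.57, is the largest of the 7 members. The other neurons held 20.4 and 24.1 CPM, and the log2 fold was 3.91 ± 0.22 (adjusted p = 2.96e-06). Ddc (ENSMUSG00000020182, chr11:11814101-11898144, minus strand) overlaps 1700042O10Rik on the opposite strand. Slc18a2 and Cyb561 overlap Gm29261 and Gm9910 in the same way, and whether the counting used strand is not given in the sources used here.

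The 2 transporters were the most abundant members. Slc18a2, which fills the vesicles, was at 3082 CPM (2982 to 3184) and 2811 CPM (2687 to 2938) in noradrenergic-like cells, against 15.8 and 43.4 CPM in the other neurons. Its log2 fold was 6.68 ± 0.34 (adjusted p = 2.03e-06; ENSMUSG00000025094, chr19:59260896-59296012, plus strand). Slc6a2, which recaptures noradrenaline, was at 2426 CPM (2338 to 2517) and 2016 CPM (1912 to 2124), against 10.5 and 24.1 CPM. Its log2 fold of 6.98 ± 0.32 was the second largest of all genes tested (adjusted p = 1.05e-06; ENSMUSG00000055368, chr8:92960079-93001667, plus strand). For both genes the fold was larger in library 1 (7.53 and 7.74) than in library 2 (5.99 and 6.33), and the other neurons of library 2 held more of each.

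The 2 vesicle proteins were scarcer. Cyb561, the ascorbate-dependent electron carrier, was at 564 CPM (522 to 608) and 522 CPM (470 to 579) in the class and at 44.9 and 35.2 CPM in the other neurons. Its log2 fold of 3.72 ± 0.17 was the smallest of the 7 (adjusted p = 1.05e-06; ENSMUSG00000019590, chr11:105933702-105953336, minus strand). Slc10a4 was at 252 CPM (224 to 282) and 205 CPM (172 to 241), against 4.96 and 6.62 CPM, a log2 fold of 5.23 ± 0.22 (adjusted p = 8.62e-07; ENSMUSG00000029219, chr5:73006883-73012955, plus strand). Against the non-neuronal cells Slc10a4 had a log2 fold of 6.76 ± 0.40, and Ddc had the smallest, 3.21 ± 0.33. The 7 adjusted p-values there ran from 1.36e-08 to 1.53e-06. There Th was at 6.08 ± 0.41, Dbh at 6.49 ± 0.33, Slc6a2 at 6.90 ± 0.36, Slc18a2 at 5.92 ± 0.32 and Cyb561 at 4.81 ± 0.30.

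In CPM the order of the members was the same in both libraries: Slc18a2, Slc6a2, Dbh, Cyb561, Ddc, Slc10a4 and Th. Th and Slc10a4 had overlapping counting intervals in both libraries, and so had Slc10a4 and Ddc in library 2. As means over the 2 libraries, Slc18a2 was at 2946 ± 192 CPM (SD, n = 2), Slc6a2 at 2221 ± 290 and Dbh at 1172 ± 51.0. Cyb561 was at 543 ± 29.7, Ddc at 352 ± 110, Slc10a4 at 228 ± 33.3 and Th at 213 ± 21.6. Divided by exon length, the order changed to Slc18a2 (590 and 538 CPM per kb in libraries 1 and 2), Dbh (449 and 422), Slc6a2 (386 and 321), Cyb561 (154 and 143), Slc10a4 (120 and 97.2), Th (96.5 and 83.6) and Ddc (96.4 and 61.4). The protocol for nuclei names a kit that reads the 3′ end of RNA, where UMIs need not scale with length, so neither order gives molecules per gene exactly.

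The composition of the pathway kept one order in the 2 libraries. Of the 9658 member UMIs in noradrenergic-like cells of library 1 and the 4966 in library 2, Slc18a2 made up 37.6% and 39.2%. Slc6a2 made up 29.6% and 28.2%, and Dbh 14.8% and 15.9%. The remaining shares were 6.89% and 7.29% for Cyb561, 5.25% and 3.83% for Ddc, 3.08% and 2.86% for Slc10a4, and 2.79% and 2.76% for Th. Ddc alone had binomial intervals that do not overlap (4.81 to 5.71% and 3.31 to 4.40%). There were 0.189 UMIs of Th for each UMI of Dbh in library 1 and 0.174 in library 2, and 2.01 and 1.77 UMIs of Slc6a2 for each of Dbh. The stacked bars of composition show how far these proportions differ from those outside the class.

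**Figure D2:**
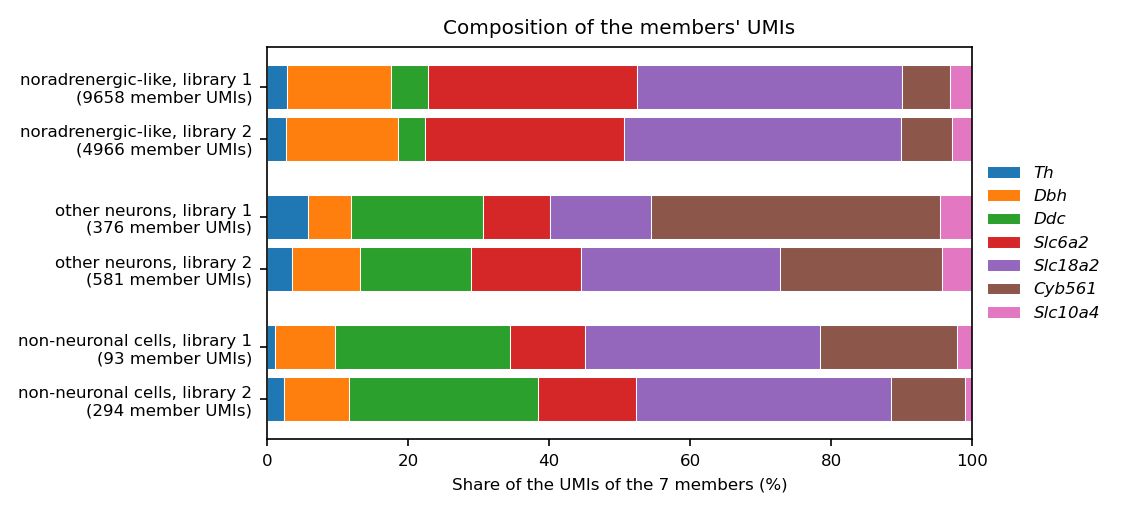
Share of each member among all UMIs of the 7 members (percent, horizontal axis) in noradrenergic-like cells, other neurons and non-neuronal cells of each library; the number of member UMIs stands beside each bar. In noradrenergic-like cells Slc18a2 and Slc6a2 lead in both libraries, while Cyb561 and Ddc take larger shares elsewhere.

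Outside the class the members spread unevenly. In library 1, 98.4% of Slc6a2 UMIs, 97.9% of Dbh, 97.7% of Slc18a2, 94.0% of Slc10a4 and 92.1% of Th fell in noradrenergic-like cells, which held 21.3% of all UMIs. Ddc (84.5%) and Cyb561 (79.5%) were less concentrated there. In library 2 the class held 10.8% of all UMIs and 91.4% of Slc6a2, 90.5% of Dbh, 87.8% of Slc18a2, 83.5% of Slc10a4, 83.0% of Th, 68.8% of Cyb561 and 52.8% of Ddc. Between the other neurons and the non-neuronal cells, where 47.5% of 12960 genes were called (23.0% higher, 24.5% lower in the neurons), only 2 members passed the test in edgeR. Cyb561 was higher in the other neurons (log2 fold 1.12 ± 0.29, adjusted p = 0.00403), though not with DESeq2 (adjusted p = 0.148). Slc18a2 was lower there (-0.68 ± 0.28, adjusted p = 0.0498), a call lost in 7 of 11 other settings (adjusted p from 0.00912 to 0.355). For Dbh the log2 difference was -0.12 (95% interval -0.91 to 0.66) and for Slc6a2 0.05 (-0.62 to 0.72), and neither passed the test. Th (1.08 ± 0.69), Slc10a4 (1.67 ± 0.75) and Ddc (-0.62 ± 0.29) did not pass either. RNA free in the droplets gives low counts in every class, and its part in these levels was not tested. Non-neuronal cells held Slc6a2 at 0.323 and 0.387 UMIs for each UMI of Slc18a2, below the 0.787 and 0.717 of noradrenergic-like cells. These intervals do not overlap in either library (0.141 to 0.675 and 0.263 to 0.560 against 0.749 to 0.827 and 0.669 to 0.769). Intervals were also apart in both libraries for Cyb561 to Dbh and Ddc to Th. They overlapped in both libraries for Slc6a2 to Dbh, Slc18a2 to Dbh, Th to Dbh and Slc10a4 to Slc18a2.

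The places outside the class described next were picked after their values were seen. In trigeminal-like neurons, the large sensory cells of the neighbouring mesencephalic nucleus (11 and 38 cells), Cyb561 was at 57.7 CPM (42 UMIs) and 43.2 CPM (26 UMIs). The same cells held 11 and 6 UMIs of Th but 2 and 1 of Dbh, so Th stood at 5.50 and 6.00 UMIs for each UMI of Dbh (intervals 1.20 to 51.1 and 0.728 to 276), above the ratio in noradrenergic-like cells. Ependymal-like cells, which line the ventricle, held Cyb561 at 48.4 CPM (14 UMIs) and 57.5 CPM (11 UMIs). A cluster of unnamed neurons led by Lmx1b and Tfap2b held Cyb561 at 63.6 CPM (32 UMIs) and 53.5 CPM (28 UMIs). Both values lie above those of the trigeminal-like cells, with overlapping intervals. In library 2, cells of this cluster in which 5 or more members were seen held 3 and 4 of the 28 UMIs. The order against the trigeminal-like cells in that library depends on them.

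In library 2, Ddc reached 243 CPM (174 to 332) in the vascular cluster that holds the endothelial marker Cldn5 and, in library 1, haemoglobin genes: 40 UMIs in 33 of its 134 cells, each cell with UMIs of endothelial markers. That is close to the 274 CPM of noradrenergic-like cells, while the same vascular cells held 2 UMIs of Dbh, 4 of Slc6a2 and 10 of Slc18a2. Ddc is known from brain capillary walls. The second vascular cluster of library 2 held 1 Ddc UMI (9.68 CPM, 0.245 to 53.9). Library 1 had 5 cells of the first cluster with 2 Ddc UMIs (48.0 CPM, 5.81 to 173), at 126543 CPM of erythroid genes; the counting intervals of the 2 libraries just miss each other, with 5 cells on one side. The last place was Slc10a4 in library 2, with 8 UMIs in the 4 cells outside the class that held at least 2 of the cholinergic genes Chat, Slc18a3 and Slc5a7; the 1 such cell of library 1 held 0.

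Most single noradrenergic-like cells held at least 5 of the 7 members. All 7 members were seen in 12 of 18 cells in library 1 and in 34 of 70 in library 2, and at least 5 members in 13 and 60. Together the members made up a median of 64.9 UMIs per 10000 UMIs of the cell in library 1 and 68.0 in library 2, and at most 1.36% and 1.49% of a cell. Slc18a2 had a median of 25.1 per 10000 (from 0 to 57.0) in library 1 and 26.7 (from 0 to 56.9) in library 2. For Slc6a2 the medians were 21.8 and 17.1, for Dbh 11.4 and 9.64, and for Th 1.62 and 1.58. The cells of both libraries overlapped for each gene, from 0 upward.

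**Figure D3:**
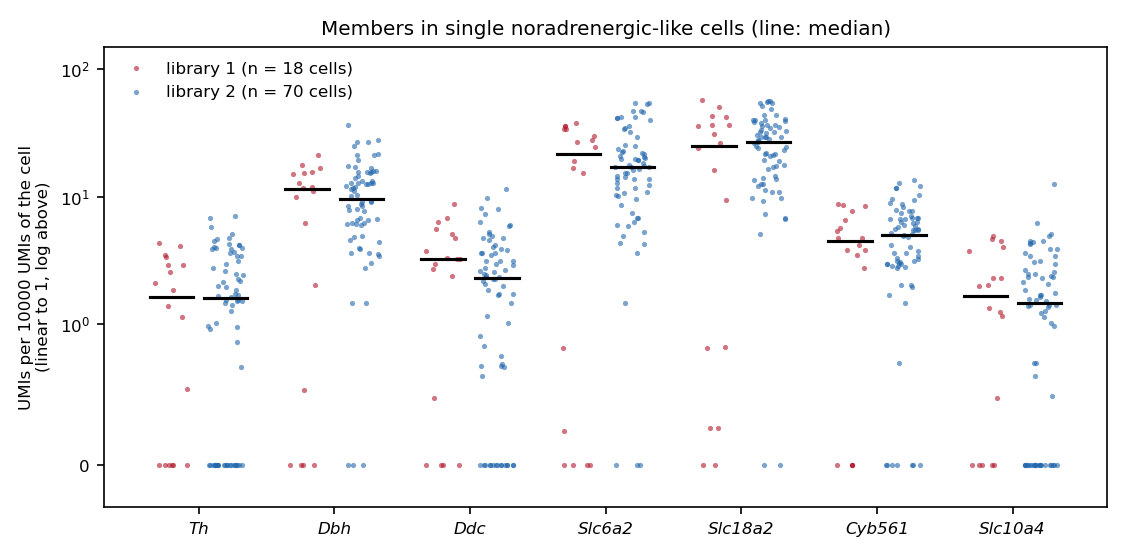
UMIs of each member per 10000 UMIs of the cell (vertical axis linear to 1 and logarithmic above) in each noradrenergic-like cell, with 18 cells of library 1 in red, 70 of library 2 in blue and black lines at the medians. The medians run from 1.46 (Slc10a4 in library 2) to 26.7 (Slc18a2 in library 2), and 4 cells of library 1 lie at or near 0 for all members.

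Some cells went against the class. In library 1, 4 cells of the class held 3 member UMIs in all, at 6699 to 38418 UMIs each, with 29 UMIs of Eya2 between them. None held Phox2a, and 3 of the 4 held UMIs of Slc17a6, the glutamate transporter VGLUT2. Library 2 had 2 such cells, with no member UMI. A further cell of library 1 with 83826 UMIs held 17 UMIs of Dbh and 23 of Cyb561 but 2 of Slc6a2, 7 of Slc18a2 and 0 of Th. Outside the class, 3 cells of library 2 held 5 or more members and 97 member UMIs, 18 of them of Dbh; without these 3, Dbh in the other neurons of library 2 was at 10.1 CPM, down from 14.8. Library 1 had 2 such cells, with 17 member UMIs.

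The members were positively correlated from cell to cell in every pair, with lower values in library 2. Over the 21 pairs, Spearman's rho of UMIs per 10000 ran from 0.74 to 0.95 (median 0.86) across the 18 cells of library 1 and from 0.16 to 0.59 (median 0.29) across the 70 of library 2. Cells near 0 raise the values of library 1: among the 13 cells with at least 5 members the range was 0.38 to 0.88 (median 0.67). Among the 60 such cells of library 2 it was 0.05 to 0.54 (median 0.23). These are descriptions with no test, since all cells of a library share its preparation; the median noradrenergic-like cell held 473 member UMIs in library 1 and 56 in library 2.

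**Figure D4:**
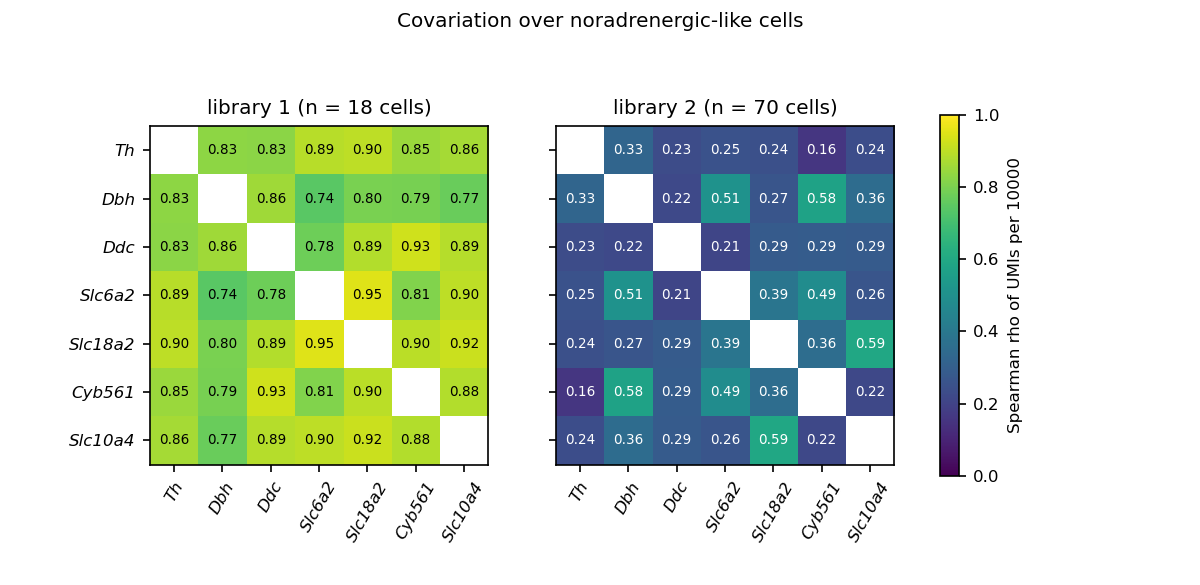
Spearman's rho between members, computed on UMIs per 10000 over the 18 noradrenergic-like cells of library 1 (left) and the 70 of library 2 (right), coloured from 0 to 1. Values lie between 0.74 and 0.95 on the left and between 0.16 and 0.59 on the right, where Slc18a2 with Slc10a4 and Dbh with Cyb561 are the highest.

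In library 2 the highest pairs were Slc18a2 with Slc10a4 (0.59), Dbh with Cyb561 (0.58) and Dbh with Slc6a2 (0.51). Slc10a4 and Slc18a2 both sit in the vesicle membrane, and Cyb561 supplies electrons to Dbh. Dbh with Slc18a2, which also share the vesicle and are more abundant, was at 0.27. In library 1 the highest were Slc6a2 with Slc18a2 (0.95), and Ddc with Cyb561 (0.93), and Dbh with Cyb561 was at 0.79, so the libraries do not share an order. Th, with a median of 2 UMIs per cell in library 2, had no rho above 0.33 there.

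The spread of a ratio over cells was set against the spread that counting alone would give, as a dispersion of 1, for 7 ratios. In library 2 it was lowest for 2 of the pairs above, whose scarcer gene had a median of 4 UMIs or fewer per cell. For Cyb561 to Dbh it was 1.01 in library 2 and 5.52 in library 1, and for Slc10a4 to Slc18a2 1.11 and 3.01, the latter 1.90 without the most deviant cell. For Slc6a2 to Slc18a2 it was 4.89 in library 2 and 5.90 in library 1, so the plasma membrane and the vesicle transporter varied in proportion beyond counting error in both. Slc18a2 to Dbh gave 3.81 and 14.3, the latter 8.47 without the most deviant cell. Th to Dbh gave 1.42 and 2.48. Cells with at least 5 UMIs of Slc18a2 ran from 0.146 to 2.44 UMIs of Slc6a2 per UMI of Slc18a2 in library 2 (64 cells) and from 0.286 to 1.77 in library 1 (13 cells).

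**Figure D5:**
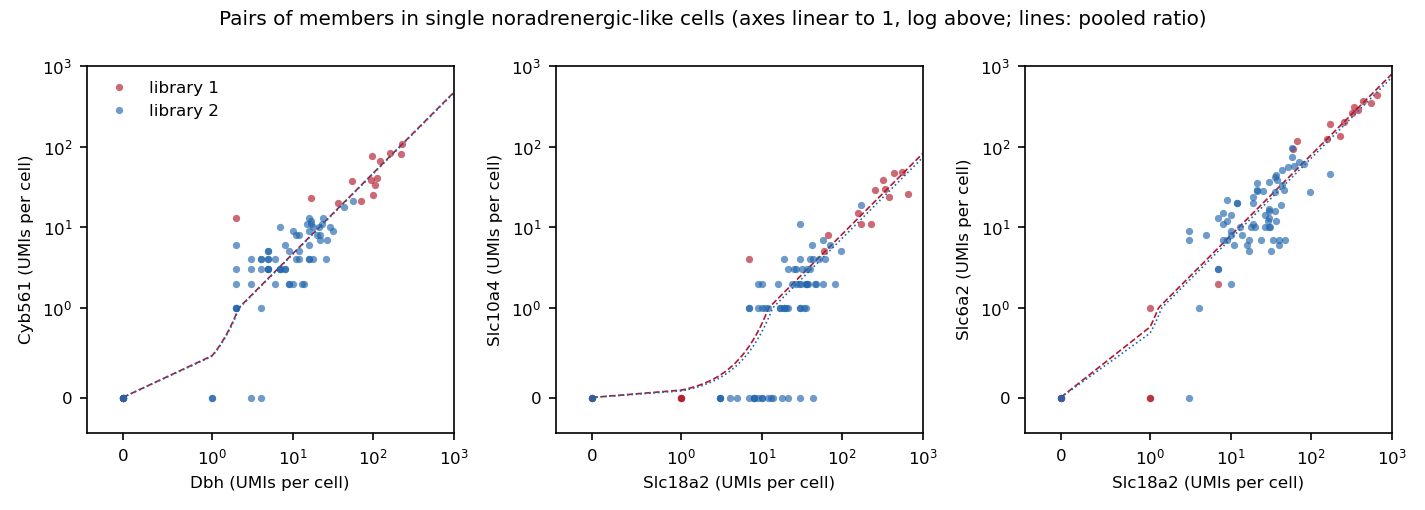
UMIs per cell of 3 pairs of members in single noradrenergic-like cells (both axes linear to 1 and logarithmic above), library 1 in red and library 2 in blue, with lines at the pooled ratio of each library. Library 2 cells follow the line for Cyb561 with Dbh (dispersion 1.01) and Slc10a4 with Slc18a2 (1.11) and scatter more widely for Slc6a2 with Slc18a2 (4.89).

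Co-detection was compared at equal depth, with every cell drawn down to 1000 UMIs. In library 2, 237 other neurons and 489 non-neuronal cells were shallower and were left out. Among the 60 cells there with a Dbh UMI, 66.7% (53.3 to 78.3) also held Slc6a2, 63.3% (49.9 to 75.4) Slc18a2, 35.0% Cyb561, 26.7% Slc10a4 and 13.3% Ddc, and 9 of the 60 held Th. Among the 1894 cells without Dbh, 6.34% held Slc18a2, 2.80% Ddc, 2.59% Cyb561, 2.53% Slc6a2, 0.422% Th and 0.317% Slc10a4. Over all classes together, a Dbh UMI in library 2 thus went with a higher share for each of the other members. Of the 60 cells with Dbh, 38 were noradrenergic-like, as were 10 of the 11 such cells of library 1. All members were higher in that class, so class makeup and co-detection within a class cannot be told apart in these pooled shares. In library 1, 63.6% of the 11 cells with Dbh held Slc6a2 and 81.8% held Slc18a2, against 2.12% and 2.83% of the 283 without. Ddc and Cyb561 were each in 5 of those 11 cells and Th in 1, while Slc10a4 was in 0 of the 11 and in 2 of the 283.

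At that depth Slc6a2 was seen in 81.4% of the 70 noradrenergic-like cells of library 2, Slc18a2 in 80.0%, Dbh in 54.3% and Th in 15.7%, with unthinned shares of 95.7%, 97.1%, 95.7% and 68.6%. In oligodendrocyte-like cells, which should lack them, the thinned shares were 1.47% for Slc6a2, 5.69% for Slc18a2, 0.917% for Dbh and 0.367% for Th over 545 cells. Unthinned, these were 3.43%, 7.43%, 2.00% and 0.714% of 700 cells. In the other neurons the thinned shares, 1.89% for Slc6a2, 5.58% for Slc18a2 and 0.399% for Th over 1003 cells, lie within the intervals of that background, as do Dbh with 15 of 1003 and Ddc with 28. For Ddc the background itself was not low. Unthinned, oligodendrocyte-like cells held it at 44.0 CPM (17 UMIs, 25.6 to 70.4) in library 1 and 25.4 CPM in library 2. The other neurons held 20.4 (15.9 to 25.8) and 24.1 CPM. Cyb561 (2.99%) and Slc10a4 (0.698%, 7 of 1003 cells) lie above the oligodendrocyte-like intervals, which run from 0.518 to 2.63% and from 0 to 0.675%. Their own intervals, 2.03 to 4.24% and 0.281 to 1.43%, overlap these. Of the cells with 3 or more members at 1000 UMIs, 11 of 11 in library 1 and 44 of 51 in library 2 were noradrenergic-like. Unthinned, these were 14 of 39 in library 1 and 68 of 81 in library 2.

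The other genes of the pathway came from a list of 41 with cofactor, breakdown, transport, metal supply and regulatory groups. Of the 31 tested against the other neurons, 18 were higher, 3 lower and 10 not called, with a median log2 fold of 0.77. Over all genes tested, 14.5% were called higher and 13.7% lower. Maoa, the monoamine oxidase that breaks down noradrenaline, had the largest fold (4.57 ± 0.19), at 702 and 545 CPM in the class; it is also among the genes that lead the cluster. The 3 genes of tetrahydrobiopterin, the cofactor of Th, that were higher were Gch1, which starts its synthesis (3.60 ± 0.24), Qdpr (3.03 ± 0.18) and Pcbd1 (2.82 ± 0.35), which recycle it; the other 4 tested of this group were not called. Akr1b3, an aldehyde-reducing enzyme (3.15 ± 0.28), Maob (2.62 ± 0.40) and the copper importer Slc31a1 (1.85 ± 0.29) were higher as well, and the aldehyde dehydrogenase Aldh2 was lower (-1.56 ± 0.40). Their adjusted p-values in edgeR ran from 6.95e-07 to 0.0161. Against the non-neuronal cells Maob (0.20 ± 0.37) and Slc31a1 (0.30 ± 0.28) were not called. Gch1 (1.30 ± 0.28) and Qdpr (1.13 ± 0.25) were higher there by less. Maoa (4.01 ± 0.28), Akr1b3 (2.30 ± 0.33) and Pcbd1 (5.4 ± 0.6) were also higher there, and Aldh2 was lower (-1.63 ± 0.47). Maob, Slc31a1, Gch1 and Qdpr were lower in the other neurons than in the non-neuronal cells. Pnmt, which would turn noradrenaline into adrenaline, and Tph1 and Tph2 of serotonin synthesis were too low to be tested.

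Across 9 named classes, the genes outside the members most like Th were Chrnb3 (lower of the 2 libraries' Pearson r 0.99), Rtl1 (0.98), Tm4sf4 (0.98), Fibcd1 (0.97) and Phox2a (0.97), among 10660 genes. For Dbh they were Chodl (0.95), Tm4sf4, Phox2a, Pgr15l and Agtr1a (each 0.95). Phox2a is one of the markers that named the class. Among the members Dbh was most like Slc6a2 (0.96) and Slc18a2 (0.95) and least like Ddc (0.73) and Cyb561 (0.76), the 2 members with the largest shares of their UMIs outside the class. All of these rest on 1 class with high values and share its cells and depth.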

How the data were processed

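The deposited matrices hold counts: whole numbers of UMIs per gene and barcode, not normalized, per the file headers made with Cell Ranger 6.1.2. The submitters' processing notes name Cell Ranger 7.0, Seurat, mm10 and GRCm38; whether introns or strand were used in counting is not given in the sources used here. Both libraries belong to 1 group, with batch and replicate the same, and the shallowest deposited barcodes had 4208 and 500 UMIs.

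Barcodes needed 300 genes or more, and no more than 20% of UMIs from mitochondrial genes, and the highest Scrublet scores were removed at 0.8% per 1000 barcodes. Cells were clustered on 130 marker genes that held no member (scanpy 1.11.5, 20 components, 15 neighbours, Leiden resolution 1.0, seed 1). A cluster was neuronal at 5000 CPM or more of pan-neuronal markers and was named "-like" where 3 or more markers of a list reached 10 CPM and exceeded the median cluster by 2 on the log2 scale (prior 20 CPM). Neurons of the unnamed clusters were kept among the other neurons. UMIs were summed per class and library and tested with edgeR 4.0.16 (TMM, filterByExpr, glmQLFit, library as a block, two-sided, Benjamini-Hochberg, threshold 0.05). With 1 residual degree of freedom per fit, the spread was moderated over genes; the SE is the log2 fold over the square root of F. Folds of single libraries use a prior of 2 counts. On simulated counts with 50 changed genes per size, noradrenergic-like cells against other neurons recovered 6 genes at 2-fold, 37 at 4-fold and 45 at 8-fold.

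CPM intervals are exact Poisson and shares exact binomial (Clopper-Pearson), at 95%, for counting error only. Positions and exon lengths are from GENCODE M21, and promoters from RefSeq. The named genes are the 7 members, the 8 called genes of the pathway list with the largest folds against other neurons, and 5 genes each most like Th and Dbh; other features were named after their values were seen. The members and lists were chosen with earlier results of these data known. The alternatives were other normalization (RLE), filter, tool (DESeq2 1.42.0), cell filters, clustering, and leaving out each library.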

Additional observations from a re-analysis of the deposited data

How the results depend on the processing

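All 7 members were called higher in noradrenergic-like cells in every alternative run, 11 against the other neurons and 9 against the non-neuronal cells, the fit with no replicate block included (7 and 7). Both counts include a run that built the classes with the members themselves. Its outcome was fixed in part by that choice, so it adds no support. With DESeq2 fewer genes were called: 468 higher and 558 lower against the other neurons (edgeR 1683 and 1589), 1432 and 1667 against the non-neuronal cells (2817 and 2951), and 1595 and 1908 between the latter groups (2985 and 3169). From a single library, the log2 folds against the other neurons were 3.46 to 4.34 for Ddc and 6.18 to 7.32 for Dbh.

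Between the other neurons and the non-neuronal cells the calls depended on the setting, and the cause was not tested. Members called lower in neurons, 1 as reported, were 0 with RLE, no filter, DESeq2, no replicate block, at least 500 genes, more doublets removed, or vascular cells left out (an alternative added after seeing the data). There were 2 (Slc18a2 and Ddc) when clustering on variable genes or leaving out unnamed neuron clusters with glial markers (also added). Members called higher were 0 with DESeq2 and 2 (Cyb561 and Slc10a4) with at least 500 genes or variable genes.

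Averaging the shares of single cells moved Slc6a2 from 28.9% to 26.9%, Cyb561 from 7.09% to 9.19%, Th from 2.77% to 2.49% and Slc10a4 from 2.97% to 2.60%; without the cell with most member UMIs Th was at 2.71%. Co-detection moved with the number of UMIs drawn, which also changes the cells kept. Of library 2 cells with Dbh, those with Slc6a2 were 34.5% at 500 UMIs and 96.8% at 5000, and those with Slc18a2 36.2% at 500, 80.8% at 2000 and 98.4% at 5000. Noradrenergic-like cells were 30 of the 58 cells with Dbh at 500 UMIs and 57 of the 62 at 5000, so depth and cell makeup cannot be told apart here. At 1000 UMIs within noradrenergic-like cells of library 2 alone, 94.7% of the 38 cells with Dbh held Slc6a2 and 89.5% held Slc18a2. Among all 70 cells of the class there, with or without Dbh, the shares were 81.4% and 80.0%. Depth limits Th, Ddc and Slc10a4 most, at a median of 2, 2 and 1 UMIs per cell in library 2, and 5 cells limit the vascular comparison in library 1.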
